A study of Mus musculus with 12 samples.

Results

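Extracellular ATP, NAD and adenosine act on T cells through a small set of surface receptors and enzymes, and the mRNA of 8 of them was followed here in CD4+ T cells of mice that lack Tet2 and Tet3 in their regulatory T cells. The genes were chosen by name (P2rx7, P2rx4, Entpd1, Nt5e, Adora2a, Adora2b, Cd38 and Art2b), and all 8 were found among the 26608 genes listed for each library. The cells analysed, CD4+ YFP(FOXP3)-, came from mice aged 14 weeks, with the spleen and the lymph nodes (cervical, inguinal) of a mouse pooled before sorting, and RNA was sequenced in 12 libraries, 4 per group, each labelled as a separate mouse. The 4 WT mice carried Foxp3-Cre with intact Tet2 and Tet3. The 4 DKO-moderate and 4 DKO-severe mice were Foxp3-Cre Tet2/3 fl/fl and were told apart by the number of splenocytes and lymphocytes recovered. Foxp3-Cre deletes in cells that express Foxp3, and the study's text notes that it can also be active at a low level in other blood cell precursors. The sorted YFP(FOXP3)- population can thus hold cells that once expressed Foxp3, CD4+ T cells with intact Tet2 and Tet3, and other cells with deletion.

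In these pathways, ATP released by activated or dying cells opens the ion channels P2RX7 and P2RX4. The ectoenzyme CD39, encoded by Entpd1, removes phosphates from ATP and ADP, and CD73, encoded by Nt5e, converts the resulting AMP to adenosine. Adenosine raises cAMP through the A2A and A2B receptors, encoded by Adora2a and Adora2b, and A2A signalling restrains T cell activation. NAD outside the cell is consumed by CD38, while the mouse ADP-ribosyltransferase encoded by Art2b uses it to modify P2RX7, which can open the channel and kill the T cell. Regulatory T cells are known for carrying both CD39 and CD73.

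Libraries held 29254260 to 42133536 reads on genes. Reads of Foxp3 were low in all libraries, at 0.13 to 3.1 CPM (the reads of a gene scaled to library size, with TMM factors). Summed levels of 7 T cell markers lay between 4016.4 and 4955.0 CPM over the 12 libraries. The sum joins opposite changes, as Cd5 and Lck were lower in every DKO-severe library than in every WT library, and Cd28, Cd3e and Cd3g higher. Cd5 was 407.6 to 574.2 CPM in WT and 186.7 to 307.6 CPM in DKO-severe, and Cd28 312.2 to 357.3 and 455.2 to 491.0 CPM. The median of Tet2 was 51.2 CPM in WT, 54.3 CPM in DKO-moderate and 60.2 CPM in DKO-severe, and that of Tet3 was 201.7, 138.4 and 96.8 CPM. Tet3 was lower in DKO-severe than in WT (log2 fold change -1.03, adjusted p = 0.000859), and Tet2 did not pass the test (0.22, adjusted p = 0.234). Counts over a whole gene do not show whether the floxed exons were present. The labels give no sex. Summed Y-linked markers were at most 0.571 CPM in WT 2, DKO-moderate 2, DKO-moderate 4 and DKO-severe 3. They were 369.8 to 555.8 CPM in the other libraries, so each group held mice of both sexes, though not in the same shares in all 3 groups. The libraries WT 3, DKO-severe 1 and DKO-severe 2 stood apart by markers of other cells. Summed B cell markers reached 189.0 CPM in WT 3 and 295.9 in DKO-severe 2 against 1.18 to 53.1 in the other libraries, and summed neutrophil markers reached 2017.7 in DKO-severe 1 and 745.4 in DKO-severe 2 against at most 21.3. Values without these libraries are given below for part of the results. Where none is given, the result can still depend on them.

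Nt5e and Cd38 carried the largest differences among the 8 genes, and both were already higher in DKO-moderate than in WT. In DKO-severe against WT, 5 of the 8 genes were higher at an adjusted p below 0.05 (Nt5e, Cd38, Entpd1, Adora2a and P2rx7) and none was lower. All 8 entered the test. Of the 16035 genes tested, 52.6% passed in this comparison, 26.6% as higher and 25.9% as lower, so passing was common. In DKO-moderate against WT, 4 of 8 were higher (Nt5e, Cd38, P2rx7 and Adora2a), against 17.1% of all genes passing, 12.3% as higher and 4.74% as lower. In DKO-severe against DKO-moderate, 2 of 8 were higher (Nt5e and Adora2a), against 20.1% of all genes, 9.41% as higher and 10.7% as lower. The median log2 fold change of the 8 genes was 1.2, 0.7 and 0.55 in the 3 comparisons in this order, and that of all tested genes was -0.01, 0.0 and -0.03. The medians of the 8 genes include Adora2b, at 2.07 in DKO-severe against WT and 2.26 between the DKO groups. Adora2b passed the filter on low counts only through DKO-severe, so the filter favoured a rise in it. Both comparisons with WT use the same 4 WT libraries, so they are not independent of each other. In bulk RNA, more cells of a type that expresses a gene and more RNA of it per cell cannot be told apart.

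**Figure D1:**
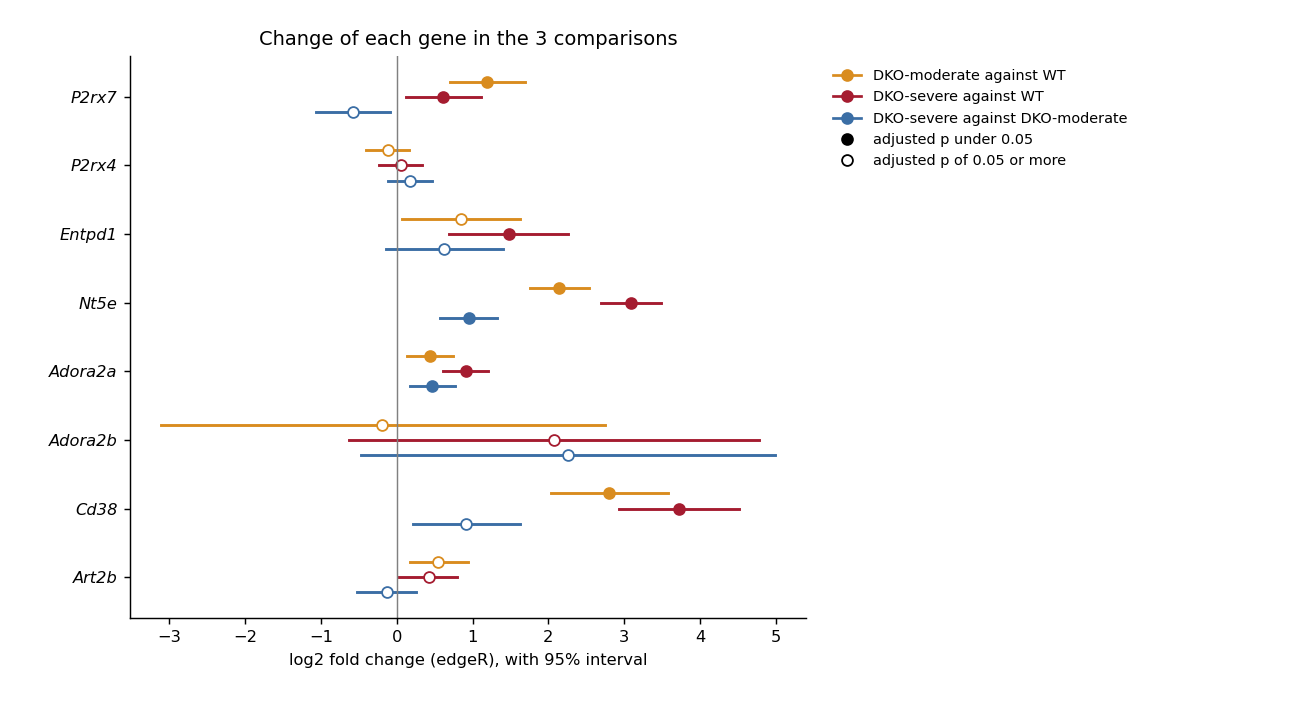
Log2 fold change of each of the 8 genes (rows) in the 3 comparisons (colours), on the x axis, with its 95% interval from edgeR. Filled points passed an adjusted p of 0.05. Nt5e is at 3.09 and Cd38 at 3.72 in DKO-severe against WT, P2rx4 is near 0 in all 3, and P2rx7 is the one filled gene whose DKO-severe point (0.61) lies below its DKO-moderate point (1.19).

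P2rx7, the ATP-gated channel that at high ATP concentrations opens a large pore and can kill T cells, lies on chromosome 5 at 122643911 to 122691432 on the plus strand (GRCm38, GENCODE M21). WT libraries 1 to 4 had 45.5, 59.0, 64.9 and 73.9 CPM. DKO-moderate libraries had 111.4, 193.8, 138.1 and 112.8 CPM, and DKO-severe libraries had 112.5, 101.1, 100.1 and 59.2 CPM. All DKO-moderate libraries lay above all WT libraries, whereas DKO-severe library 4 fell inside the WT range and the 3 others lay between WT and most of DKO-moderate. The mean rose from 60.9 ± 11.9 CPM in WT to 139.0 ± 38.5 in DKO-moderate (SD, n = 4 each), a log2 fold change of 1.19 (SE 0.23, adjusted p = 0.00449). This call held in all 25 alternative settings tried, which are other tools, scalings, filters, covariates and sets of libraries. In DKO-severe the mean was 93.2 ± 23.4 CPM (SD, n = 4), and the log2 fold change against WT was 0.61 (SE 0.23, adjusted p = 0.0369). That call was lost in 10 of the 25 settings (adjusted p from 0.00766 to 0.908), among them without WT library 1 (0.103), WT 2 (0.0775), WT 3 (0.0521), DKO-severe 1 (0.1), DKO-severe 2 (0.0679) or DKO-severe 3 (0.0686), and under the replicate block (0.059). Without WT 3, DKO-severe 1 and DKO-severe 2 together it was 0.42 (adjusted p = 0.276), and with terms for neutrophil and B cell markers the log2 fold change was -0.09 (adjusted p = 0.908).

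The lower level of P2rx7 in DKO-severe than in DKO-moderate did not pass the test. Its log2 fold change was -0.58 (95% interval -1.07 to -0.09, adjusted p = 0.0877), the exact two-sided permutation test on CPM gave p = 0.057, and no alternative passed. Among the 8 genes it was one of 2 whose value in this comparison was below 0, the other being Art2b.

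P2rx4, the neighbouring ATP-gated channel, begins 16111 bases past the end of P2rx7 on the same strand (chromosome 5, 122707544 to 122729738). WT libraries had 18.7, 20.1, 18.2 and 17.8 CPM. DKO-moderate libraries had 14.2, 20.7, 15.5 and 18.3 CPM, and DKO-severe libraries 22.4, 19.6, 16.5 and 19.2 CPM. The 3 groups overlapped throughout. The 95% intervals of the log2 fold change were -0.23 to 0.34 in DKO-severe against WT, -0.41 to 0.16 in DKO-moderate against WT and -0.11 to 0.47 between the DKO groups, and P2rx4 passed the test in no alternative.

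The ratio of the 2 receptors within a library removes differences in depth and scaling. The log2 ratio of P2rx7 to P2rx4 was 1.28, 1.56, 1.83 and 2.05 in WT libraries 1 to 4. It was 2.97, 3.23, 3.16 and 2.62 in DKO-moderate and 2.33, 2.37, 2.6 and 1.62 in DKO-severe. No DKO-moderate library overlapped with WT or with DKO-severe. The mean ratio was 1.31 higher in DKO-moderate than in WT and 0.77 higher than in DKO-severe, each with p = 0.029 in the exact two-sided permutation test, which is the smallest p that 4 against 4 libraries can give. After adjustment over the 9 ratio tests made, both were at 0.086, and DKO-severe against WT was at 0.15 (difference 0.55).

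Entpd1, the enzyme that degrades ATP and ADP, lies on chromosome 19 at 40612366 to 40741602 (plus strand), with Tctn3 starting 132 bases away on the other strand. The counting used strand, so reads of the 2 genes were kept apart. WT libraries had 4.83, 7.32, 9.34 and 11.5 CPM. DKO-moderate libraries had 17.1, 17.1, 13.3 and 11.9 CPM, and DKO-severe libraries had 19.6, 41.5, 11.1 and 19.9 CPM. DKO-moderate lay wholly above WT, while DKO-severe ranged from a value inside the WT range in library 3 to the highest value of all in library 2. The mean was 8.24 ± 2.84 CPM in WT, 14.8 ± 2.64 CPM in DKO-moderate and 23.0 ± 13 in DKO-severe (SD, n = 4 each). Entpd1 rose in DKO-severe against WT by a log2 fold change of 1.48 (SE 0.36, adjusted p = 0.00466) and did not pass in DKO-moderate against WT (0.85, SE 0.36, adjusted p = 0.124) or between the DKO groups (0.63, SE 0.35, adjusted p = 0.212). The DKO-severe value was 0.98 (adjusted p = 0.0505) without WT 3, DKO-severe 1 and DKO-severe 2, 1.01 (0.179) with a term for monocyte and macrophage markers and 0.92 (0.364) with terms for neutrophil and B cell markers. The other 22 settings kept the call (adjusted p over all 25 from 7.27e-05 to 0.364). The DKO-moderate value passed in 1 setting, the fit of those 2 groups alone (0.0473; over all 25, 0.0473 to 0.267).

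Nt5e, which makes adenosine from AMP, lies on chromosome 9 at 88327197 to 88372092 (plus strand) and showed the clearest separation of the 3 groups. WT libraries had 54.6, 68.0, 70.3 and 80.9 CPM. DKO-moderate libraries had 270.2, 393.8, 282.1 and 265.1 CPM, and DKO-severe libraries had 529.4, 452.8, 652.4 and 697.8 CPM. No 2 groups overlapped, so that every DKO-moderate library lay above every WT library and below every DKO-severe library. Nt5e was the only one of the 8 genes with this separation in all 3 comparisons, and the share of tested genes that were higher without overlap was 24.6% in DKO-severe against WT, 14.6% in DKO-moderate against WT and 9.77% between the DKO groups. The means were 68.5 ± 10.8, 302.8 ± 61.1 and 583.1 ± 112.3 CPM (SD, n = 4 each). Against WT, Nt5e was 4.42-fold higher in DKO-moderate (log2 fold change 2.14, SE 0.18, adjusted p = 7.14e-05) and 8.52-fold higher in DKO-severe (3.09, SE 0.18, adjusted p = 3.1e-06), and both calls held in all 25 alternatives. DKO-severe exceeded DKO-moderate 1.93-fold (0.95, SE 0.17, adjusted p = 0.00539), a call lost in 1 of 25 alternatives, with terms for neutrophil and B cell markers, where the value was 1.15 (adjusted p = 0.133, over all 25 from 1.5e-06 to 0.133). Without WT 3, DKO-severe 1 and DKO-severe 2 the same 3 values were 2.16, 3.32 and 1.16.

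Entpd1 and Nt5e act in sequence, and their mRNA did not rise by the same factor in every library. The log2 ratio of Nt5e to Entpd1 was 3.5, 3.21, 2.91 and 2.82 in WT libraries 1 to 4. It was 3.98, 4.53, 4.41 and 4.47 in DKO-moderate and 4.75, 3.45, 5.87 and 5.13 in DKO-severe. DKO-moderate lay wholly above WT, by 1.24 on average (exact two-sided permutation test p = 0.029, adjusted over the 9 ratio tests 0.086). DKO-severe library 2, which had the most Entpd1, fell inside the WT range, and the mean difference from WT of 1.69 had p = 0.057 in the exact test (adjusted 0.13).

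**Figure D2:**
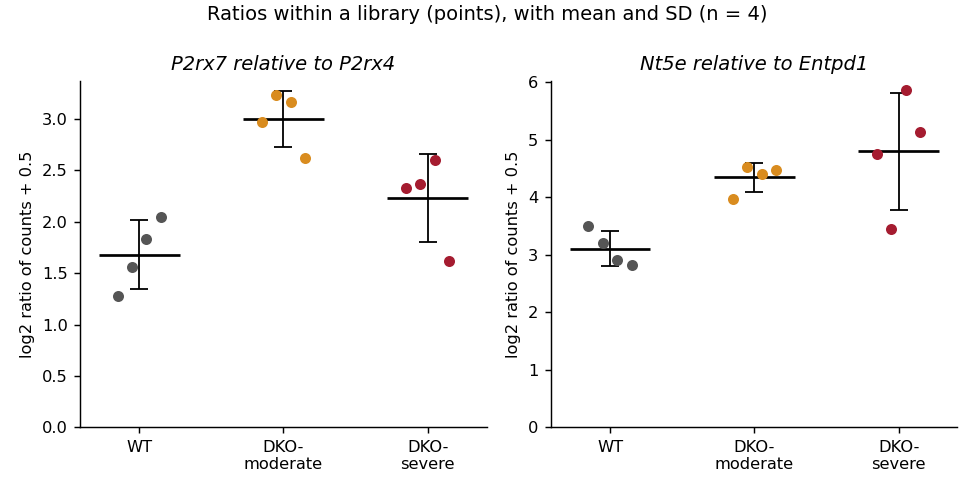
Log2 ratio of read counts, each plus 0.5, of P2rx7 to P2rx4 (left) and of Nt5e to Entpd1 (right) on the y axes, by group on the x axes. Points are libraries, and bars are the mean and SD of 4 libraries. The DKO-moderate libraries lie above all WT libraries in both panels, and in the left panel also above all DKO-severe libraries (2.62 to 3.23 against 1.62 to 2.6).

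Cd38, the main enzyme that breaks down extracellular NAD and a marker of activated lymphocytes, lies on chromosome 5 at 43868553 to 43912375 (plus strand), next to its paralog Bst1. WT libraries had 3.42, 5.45, 12 and 8.42 CPM. DKO-moderate libraries had 44.9, 80.1, 37.2 and 42.8 CPM, and DKO-severe libraries had 102.0, 102.9, 106.1 and 76.6 CPM. Every library of both DKO groups lay above every WT library, and the DKO groups overlapped only through DKO-moderate library 2 and DKO-severe library 4. The means were 7.33 ± 3.75, 51.2 ± 19.5 and 96.9 ± 13.6 CPM (SD, n = 4 each). Cd38 had the largest fold change of the 8 genes against WT, with a log2 fold change of 2.80 (SE 0.35, adjusted p = 0.00046) in DKO-moderate and 3.72 (SE 0.36, adjusted p = 1.33e-05) in DKO-severe, and both calls held in all 25 alternatives. B cells and plasma cells also express Cd38. Summed plasma cell markers were 0.575, 1.29, 88.4 and 1.56 CPM in WT libraries 1 to 4, 2.45 to 24.9 CPM in DKO-moderate and 49.4 to 191.5 CPM in DKO-severe, so that, apart from WT 3, they moved in the order of the groups as Cd38 did. Summed B cell markers were 1.18 to 2.9 CPM in WT apart from 189.0 in WT 3, 2.21 to 6.02 CPM in DKO-moderate and 18.1 to 295.9 CPM in DKO-severe. WT 3 had the most Cd38 and the most of both lists in its group. The part of plasma cell markers in the Cd38 result was not tested, and with terms for neutrophil and B cell markers its calls against WT held. Without WT 3, DKO-severe 1 and DKO-severe 2 the log2 fold changes were 3.15 and 3.99.

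Between the DKO groups Cd38 stayed just outside the threshold, at 0.92 (SE 0.33, adjusted p = 0.0652). It passed in 6 of 25 alternatives (adjusted p from 0.00173 to 0.654), namely with DESeq2 (0.0191), limma voom (0.00173), the fit of the 2 groups alone (0.0377), and without WT 1 (0.0355), WT 3 (0.0374) or DKO-moderate 2 (0.021).

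Art2b, the ADP-ribosyltransferase that can gate P2RX7 from NAD, lies on chromosome 7 at 101576970 to 101585600 (minus strand). WT libraries had 39.0, 54.1, 43.8 and 44.1 CPM. DKO-moderate libraries had 76.9, 76.2, 70 and 42.2 CPM, and DKO-severe libraries had 49.8, 67.2, 60.0 and 64.9 CPM. In DKO-moderate 3 libraries lay above all WT libraries and library 4 lay inside the WT range, and in DKO-severe library 1 did. The means were 45.3 ± 6.35, 66.3 ± 16.4 and 60.5 ± 7.72 CPM (SD, n = 4 each). Neither difference from WT passed, at a log2 fold change of 0.55 (SE 0.18, adjusted p = 0.0507) in DKO-moderate and 0.42 (SE 0.18, adjusted p = 0.0635) in DKO-severe. Both lay close to the threshold and passed in 8 and 9 of 25 alternatives (adjusted p 0.00397 to 0.136 and 0.00571 to 0.26), for DKO-moderate without DKO-moderate 4 (0.00397) or DKO-severe 1 (0.0474), and for DKO-severe without WT 2 (0.0441), DKO-moderate 4 (0.00571) or DKO-severe 1 (0.0431). The adjacent near-identical gene is listed as Art2a-ps, a polymorphic pseudogene at 101552453 to 101560865, and since only reads with a single position were kept, how reads split between the 2 copies is uncertain. Art2a-ps had 1.87, 2.55, 3.25 and 5.77 CPM in WT, 8.35, 48.1, 9.69 and 15.4 CPM in DKO-moderate and 67.0, 28, 44.6 and 39.1 CPM in DKO-severe. No DKO library fell inside the WT range, and the log2 fold change was 2.59 (SE 0.56, adjusted p = 0.00894) in DKO-moderate and 3.73 (SE 0.59, adjusted p = 0.000267) in DKO-severe.

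Adora2a, the main adenosine receptor of T cells, lies on chromosome 10 at 75316877 to 75334784 (plus strand). WT libraries had 36.1, 36.4, 43.9 and 43.3 CPM. DKO-moderate libraries had 55.5, 61.5, 50.4 and 49.6 CPM, and DKO-severe libraries had 96.7, 59.1, 73.6 and 71.2 CPM. Both DKO groups lay wholly above WT, and the 2 DKO groups overlapped at DKO-moderate 2 and DKO-severe 2. The means were 39.9 ± 4.22, 54.2 ± 5.51 and 75.2 ± 15.7 CPM (SD, n = 4 each). The rise of 0.91 on the log2 scale in DKO-severe against WT (SE 0.14, adjusted p = 0.00021) was lost in 1 of 25 alternatives, with terms for neutrophil and B cell markers (0.59, adjusted p = 0.15, over all 25 from 9.63e-10 to 0.15). The smaller changes were less stable. DKO-moderate against WT (0.44, SE 0.14, adjusted p = 0.0459) was lost in 14 of 25 settings, with adjusted p from 0.0159 to 0.128 over all 25. These included leaving out any 1 WT or DKO-moderate library or DKO-severe 3 or 4 (0.0512 to 0.128) and the replicate block (0.0828). DKO-severe against DKO-moderate (0.47, SE 0.14, adjusted p = 0.0322) was lost in 8 settings, with adjusted p from 0.00315 to 0.783 over all 25. These included leaving out DKO-moderate 1 (0.0711), DKO-moderate 3 (0.0865), DKO-severe 1 (0.0849) or DKO-severe 3 (0.0506), and the replicate block (0.0705).

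Adora2b, the lower-affinity adenosine receptor, lies on chromosome 11 at 62248984 to 62266453 (plus strand) and was close to the limit of detection. WT libraries 1 to 4 had 0, 0, 9 and 0 reads. DKO-moderate libraries had 1, 5, 0 and 2 reads, and DKO-severe libraries had 15, 15, 2 and 7. The gene passed the filter on low counts through DKO-severe, and the 3 libraries with the most reads, WT 3, DKO-severe 1 and DKO-severe 2, are those that stood apart by B cell or neutrophil markers. It passed no comparison, with 95% intervals of -0.63 to 4.77 in DKO-severe against WT, -3.11 to 2.74 in DKO-moderate against WT and -0.47 to 4.99 between the DKO groups. The first passed in 2 of 22 alternatives, with limma voom (2.88, adjusted p = 0.0215) and without WT 3 (6.38, adjusted p = 0.0121, the range over alternatives being 0.0121 to 0.969), where no WT read is left and the fold has no fixed size.

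**Figure D3:**
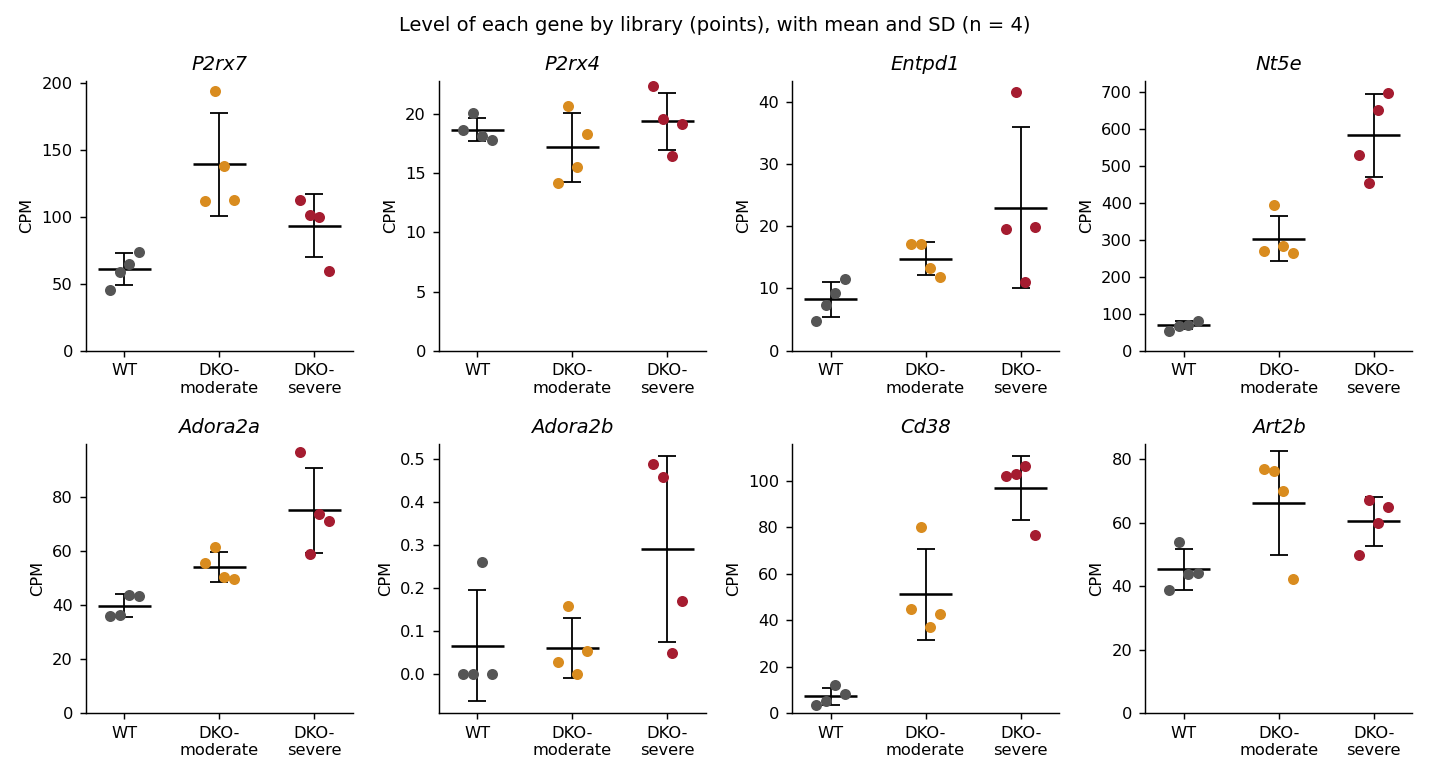
CPM (y axes, each panel with its own scale) of the 8 genes in WT, DKO-moderate and DKO-severe libraries (x axes). Points are libraries from 1 to 4, left to right, and bars are the mean and SD of 4 libraries. Nt5e separates all 3 groups, P2rx7 is highest in DKO-moderate (111.4 to 193.8 CPM), P2rx4 stays at 14.2 to 22.4 CPM, and Adora2b is below 0.5 CPM throughout.

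The order of the genes by level changed between the groups. Levels of different genes were compared as CPM per kilobase of exon. In WT the order was Art2b (16.0), Adora2a (13), P2rx7 (10.2) and Nt5e (7.96), in which each gene overlapped the next over the libraries, followed by P2rx4 (2.66), Cd38 (1.89), Entpd1 (1.48) and Adora2b (0.0351). P2rx4 overlapped Cd38, and Cd38 overlapped Entpd1. In DKO-moderate Nt5e came first (35.2, lowest library 30.8), above all libraries of Art2b, though the highest library of P2rx7 reached 32.5. Art2b (23.4), P2rx7 (23.3), Adora2a (17.7) and Cd38 (13.2) followed, each overlapping the next, and Entpd1 (2.66) and P2rx4 (2.44) overlapped each other. In DKO-severe Nt5e (67.8) again stood clear of the next gene, Cd38 (24.9) had moved to rank 2 from rank 6 in WT, and Adora2a (24.6), Art2b (21.4) and P2rx7 (15.6) followed, each overlapping the next. Entpd1 (4.12) overlapped P2rx4 (2.77), and Adora2b was last in every group.

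For each gene the 3 genes with the most similar pattern over the 12 libraries were sought among 9329 genes averaging 5 CPM or more, by the root mean square difference of centred log2 CPM. Nearest to Nt5e were Tmem159 (0.15), Ctla4, an inhibitory receptor (0.23), and Cd200, a membrane glycoprotein (0.23), where the spread of Nt5e itself was 1.31. Ctla4 averaged 33.3, 150.2 and 263.4 CPM in WT, DKO-moderate and DKO-severe. Nearest to Cd38 were Ryk (0.34), Kdelc2 (0.39) and Cst7 (0.4), against a spread of 1.7. Nearest to P2rx7 were Atp5g2 (0.28), Slc45a4 (0.3) and Ephx1 (0.31), against a spread of 0.57, and all 3 had their highest mean in DKO-moderate, as P2rx7 did. They were chosen for likeness to P2rx7 in these same libraries, so this adds no support to its own order of groups. Nearest to Adora2a were Daglb (0.1), Pptc7 (0.1) and Smarcc1 (0.11), against 0.41, and nearest to Entpd1 were Runx2 (0.31), Serpinb6b (0.34) and Lancl3 (0.36), against 0.75. Nearest to Art2b were Cd28, a costimulatory receptor (0.18), Rprd1a (0.19) and Zswim6 (0.19), against 0.33. P2rx4 (Pspc1, Hes6 and Klhl12, from 0.12 to 0.13) and Adora2b (Ogfrl1, Marcks and Apoe, from 0.47 to 0.56) varied by 0.17 and 1.21. These are descriptions over libraries that share groups, and some distance between any pair of genes comes from counting error.

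Markers of other states and cell types moved with the groups. Summed markers of T follicular helper cells were 247.5 to 460.6 CPM in WT, 890.4 to 2044.5 CPM in DKO-moderate and 2040.2 to 2937.5 CPM in DKO-severe. Summed markers of naive T cells were 4399.2 to 5101.0, 2462.7 to 3924.9 and 1655.2 to 2230.6 CPM. Both lists moved in the order of the groups, as Nt5e and Cd38 did. Summed markers of regulatory T cells, which include Il2ra, Ikzf2 and Ctla4 beside Foxp3, were 145.2 to 256.1, 435.6 to 724.6 and 819.5 to 917.7 CPM. Foxp3, which defines these cells, did not move with the sum, at 1.01 to 3.1 CPM in WT, 0.291 to 1.7 CPM in DKO-moderate and 0.13 to 0.833 CPM in DKO-severe. The part of these 3 lists in the results was not tested. DKO-moderate library 2 had the most Nt5e, Cd38, P2rx7 and Adora2a of its group, and also the most markers of follicular helper cells, regulatory T cells, B cells (6.02 CPM), neutrophils (3.47) and monocytes and macrophages (43.1). Summed monocyte and macrophage markers were 4.4 to 169.1 CPM in WT, 10.8 to 43.1 CPM in DKO-moderate and 57.2 to 348.0 CPM in DKO-severe, and a fit with a term for them gave 3 calls among the 8 genes in DKO-severe against WT in place of 5. A fit with terms for neutrophil and B cell markers gave 2, Nt5e and Cd38, and leaving out WT 3, DKO-severe 1 and DKO-severe 2 gave 3, Nt5e, Cd38 and Adora2a. Neutrophil markers were at least 8.64 CPM in every DKO-severe library and at most 3.47 CPM in all others, so the neutrophil term overlaps with the group. In DKO-severe against WT the standard error of Nt5e was 0.33 with these terms and 0.18 without, and that of Entpd1 0.63 and 0.36. A call lost with them can thus reflect lost precision. Apart from WT 3 (169.1 CPM), monocyte and macrophage markers were also higher in every DKO-severe library than in all others. With the term for them the standard error of Entpd1 was 0.53 in place of 0.36, so the same limit holds for that term. In DKO-moderate against WT, where neutrophil markers reached at most 3.47 CPM, the count was 4 without those 3 libraries, as with them. Of the 3, only WT 3 belongs to this comparison. The count was 3 without WT 3 alone, with the neutrophil and B cell terms, and with the monocyte and macrophage term.

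**Figure D4:**
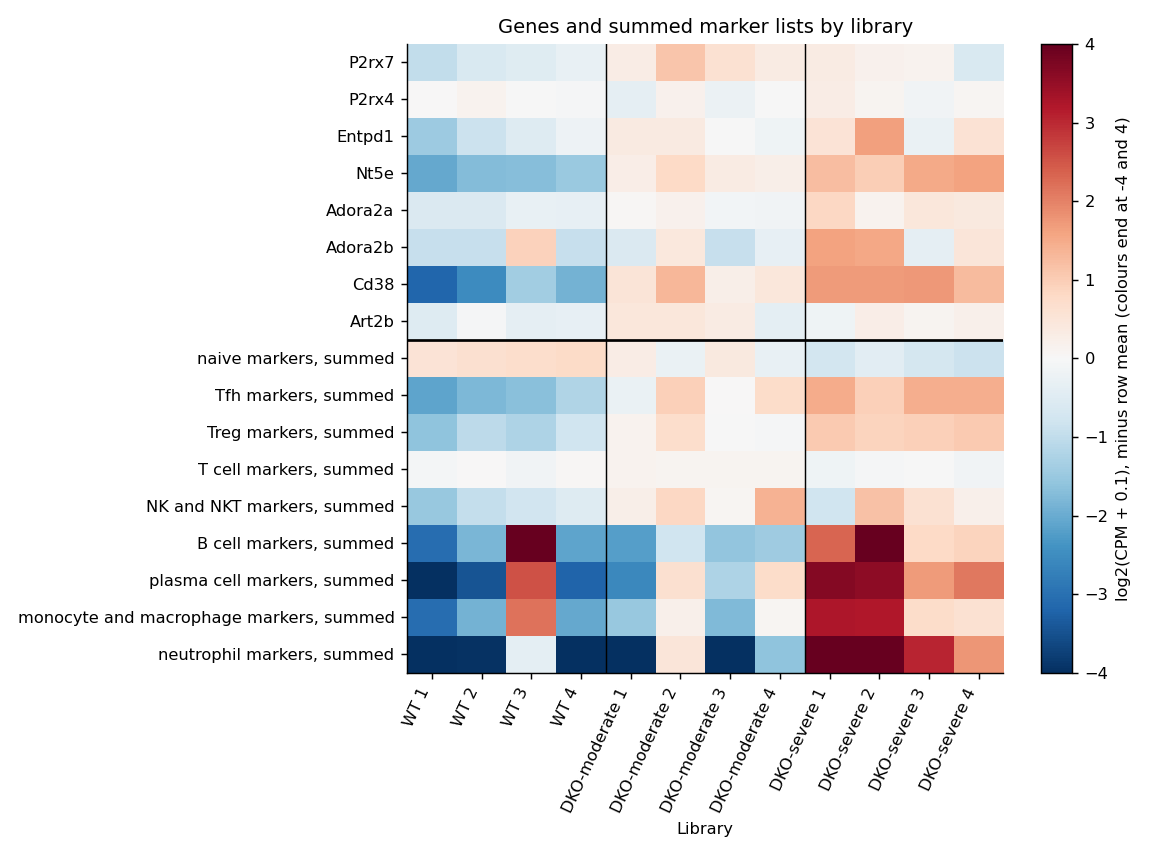
Log2(CPM + 0.1) minus the row mean (colour, with the scale ending at -4 and 4) for the 8 genes and for 9 summed marker lists (rows) in the 12 libraries (columns, vertical lines between groups). Nt5e and Cd38 rise from left to right as the summed follicular helper and regulatory T cell markers do and the naive markers fall, while B cell markers are highest in WT 3 (189.0 CPM) and DKO-severe 2 (295.9) and neutrophil markers in DKO-severe 1 (2017.7) and DKO-severe 2 (745.4).

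The start sites of these genes differ widely in CpG content, the dinucleotide whose methylation TET enzymes help to remove. Promoters of 300 bases, from 250 before to 50 after the start site, were found for 7 of the 8 genes in RefSeq (GRCm38.p6), Adora2a being the one without, and the median over 32851 promoters was 7 CpG. The promoter of Cd38 had 1 CpG and that of Art2b 3, whereas those of P2rx4 had 18, Nt5e 23, the first start of Entpd1 23 and Adora2b 27, and the first start of P2rx7 had 8. Cd38 and Nt5e, the genes with the largest changes, were thus on either side of the median. Shown are the 30 bases just before the start site of each, on the plus strand at chr5:43868779-43868808 and chr9:88327579-88327608, with CpG in capitals.
Cd38: gataaaagcaagtgaaaaaaaggaggaggg
Nt5e: ctgtcccCGcccCGccctcctctactcCGc
Methylation was not analysed here.

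Letters of 6 motifs were also searched on both strands of these promoters, AP-1 (TGANTCA, in 7.81% of all promoters), CRE (TGACGTCA, 1.79%), STAT (TTCNNNGAA, 8.3%), FOXO (TGTTTAC, 3.65%), TCF/LEF (CTTTGAA, 5.14%) and the GC box (GGGCGG, 35.7%). Of the 7 genes, P2rx7 and Art2b had an AP-1 match, P2rx7 at its first start and not at its second. The Art2b start used here, at 101581161 on the minus strand, lies inside the gene as placed by GENCODE (101576970 to 101585600). GC boxes were matched in P2rx7 (2), P2rx4 (1), Nt5e (4) and Adora2b (6), TCF/LEF once at the second start of P2rx7, and the other 3 motifs in none of the 7 genes. The 30 bases that hold each match, in capitals, lie at chr5:122643677-122643706 on the plus strand and chr7:101581248-101581277 on the minus strand.
P2rx7: cTGAGTCAcactgggtcttacaacatttga
Art2b: cgacatagacacTGAGTCAttaccccagag
Neither match overlapped another motif. A match is a run of letters, and no binding was measured.

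Around the 8 genes, 61 other genes of the same pathways were described, of which 54 had enough reads to be tested. In DKO-severe against WT, 19 were higher and 15 lower, which is 63.0% against 52.6% of all tested genes. Without WT 3, DKO-severe 1 and DKO-severe 2 the split was 11 higher and 15 lower, and with a filter of 10 reads in every library of a condition 14 and 15. Of the 19 higher genes, 3 (Adora1, Entpd3 and P2ry2) had enough reads to be tested in DKO-severe alone and 3 more (Entpd2, Gja1 and P2rx5) in the DKO groups alone, so for these the filter on low counts favoured a rise. In DKO-moderate against WT, 8 were higher and 2 lower (18.5% against 17.1%), and between the DKO groups 3 were higher and 11 lower in DKO-severe (25.9% against 20.1%), or 8 and 3, and 2 and 7, without those 3 libraries. The medians of the log2 fold change were 0.3, 0.16 and 0.02, and they include the genes for which the filter favoured a rise. The counts by role given below stand against the same shares of all tested genes. Fits with terms for neutrophil and B cell markers left 5 calls in DKO-severe against WT, and a term for monocyte and macrophage markers left 21.

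Genes that remove or transport adenosine included some of the most stable changes. Of 4 genes of adenosine removal, 2 rose and 1 fell in DKO-severe. Adk, the kinase that returns adenosine to AMP inside the cell, had 42.8 to 49.8 CPM in WT, 85.7 to 122.8 CPM in DKO-moderate and 114.1 to 160.9 CPM in DKO-severe. Neither DKO group overlapped WT, and the log2 fold changes were 1.07 (SE 0.13, adjusted p = 0.000343) and 1.51 (SE 0.13, adjusted p = 7.33e-06), called in all 25 alternatives. Pnp, purine nucleoside phosphorylase, rose by 0.53 (adjusted p = 0.0101) and 0.73 (adjusted p = 0.00034). Ada, which deaminates adenosine, was at -0.46 (adjusted p = 0.102) and fell by 0.65 (adjusted p = 0.00936), and Dpp4, the surface anchor of adenosine deaminase in humans, was at 0.21 and 0.19 without passing. Of 4 nucleoside transporters tested, Slc29a1, the equilibrative transporter that carries adenosine, rose from 45.8 to 59.2 CPM in WT to 100.5 to 209.1 in DKO-moderate and 103.6 to 170.6 in DKO-severe (1.64, adjusted p = 0.000968, and 1.47, adjusted p = 0.000284). Slc28a2, the concentrative transporter of purine nucleosides, fell in DKO-severe by 0.80 (adjusted p = 0.00105) and was at -0.24 in DKO-moderate (adjusted p = 0.311).

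Among the other NAD ectoenzymes and suppliers, 2 of 7 tested rose and 3 fell in DKO-severe, and 1 rose in DKO-moderate. Of the 2 that rose in DKO-severe, Bst1 had 3.73 and 2.59 CPM in DKO-severe 1 and 2. It had 0.286 and 0.168 CPM in DKO-severe 3 and 4, inside the WT range of 0.0323 to 0.489 CPM. The 2 largest changes among genes averaging 1 CPM or more were in Art2a-ps, described above, and Art4, a further member of the ADP-ribosyltransferase family, which had 4.37 to 6.96 CPM in WT and 0.389 to 1.12 in DKO-severe (-2.74, SE 0.46, adjusted p = 0.000428). In DKO-moderate Art4 was at -0.96 (adjusted p = 0.146).

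Of 8 other nucleotide hydrolases tested, 4 rose, among them Entpd2 and Entpd3 with the low WT reads described above, and 2 fell in DKO-severe. Alpl, the tissue-nonspecific alkaline phosphatase, rose by 2.55 (SE 0.68, adjusted p = 0.00816) from low levels, 0.161 to 0.402 CPM in WT and 0.286 to 3.57 in DKO-severe. The groups overlapped, and without WT 3, DKO-severe 1 and DKO-severe 2 the value was 1.62 (adjusted p = 0.124). Entpd5, a diphosphohydrolase of the endoplasmic reticulum, fell from 128.7 to 141.3 CPM in WT to 60.7 to 73.5 in DKO-severe (-1.01, SE 0.17, adjusted p = 0.000366).

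Of the receptors, 1 of 3 further P2X genes tested, 2 of 6 P2Y genes and both further adenosine receptors passed as higher in DKO-severe, while 1 P2Y gene fell and none of these passed in DKO-moderate. Adora1, P2ry2 and P2rx5 are among the genes for which the filter favoured a rise. P2ry1, an ADP receptor, was the one P2Y gene with a mean over all libraries above 1 CPM to pass, with 2.95 to 3.88 CPM in WT and 1.1 to 2.31 in DKO-severe (-1.14, SE 0.29, adjusted p = 0.00607). The further P2X and adenosine receptors that passed had means below 1 CPM.

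Of 5 genes of ATP release, 1 rose and 2 fell in DKO-severe. Gja1, the gap junction protein connexin 43, had 3 reads in all WT libraries together, 197 in DKO-moderate and 467 in DKO-severe, a ratio to WT, of pooled reads corrected for depth, of 64.2 (exact 95% interval 21.7 to 314.1, for counting error only) and 164.4 (55.9 to 800.3), with adjusted p = 0.00672 and 0.000523. All 3 WT reads were in WT 3, so that without WT 3, DKO-severe 1 and DKO-severe 2 no WT read is left and the ratio has no fixed size (adjusted p = 0.0249 and 0.00732). Within DKO-moderate Gja1 ranged from 0.149 to 3.12 CPM. Slc17a9, the vesicular nucleotide transporter, fell from 47.1 to 68.6 CPM in WT to 16.2 to 29.6 in DKO-severe (-1.40, SE 0.23, adjusted p = 0.000308). Of the proteins that act with P2RX7, Adam10, a sheddase, rose by 0.60 (adjusted p = 0.000597) and Ano6, a phospholipid scramblase, fell by 0.66 (adjusted p = 0.000158) in DKO-severe. Their DKO-moderate values of 0.36 (adjusted p = 0.0356) and -0.32 (adjusted p = 0.0371) lost their calls in 12 and 13 of 25 alternatives.

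Downstream of A2A, 3 of 12 genes of cAMP signalling rose and 4 fell in DKO-severe, and 1 rose and 1 fell in DKO-moderate. The 2 largest changes were falls of phosphodiesterases, the enzymes that break down cAMP. Pde3b fell from 243.8 to 359.4 CPM in WT to 37.9 to 156.8 in DKO-severe (-1.53, SE 0.34, adjusted p = 0.00253), and Pde4d from 94.2 to 122.8 CPM to 27.8 to 54.8 (-1.30, SE 0.17, adjusted p = 9.03e-05). In DKO-moderate they were at -0.34 (adjusted p = 0.506) and -0.45 (adjusted p = 0.0892). Except for Adk, Adam10 and Pde4d, the DKO-severe calls of the genes above a mean of 1 CPM with the largest changes were lost with terms for neutrophil and B cell markers. The neutrophil term overlaps with the DKO-severe group, so a call lost or kept with it does not show the part of other cells.

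**Figure D5:**
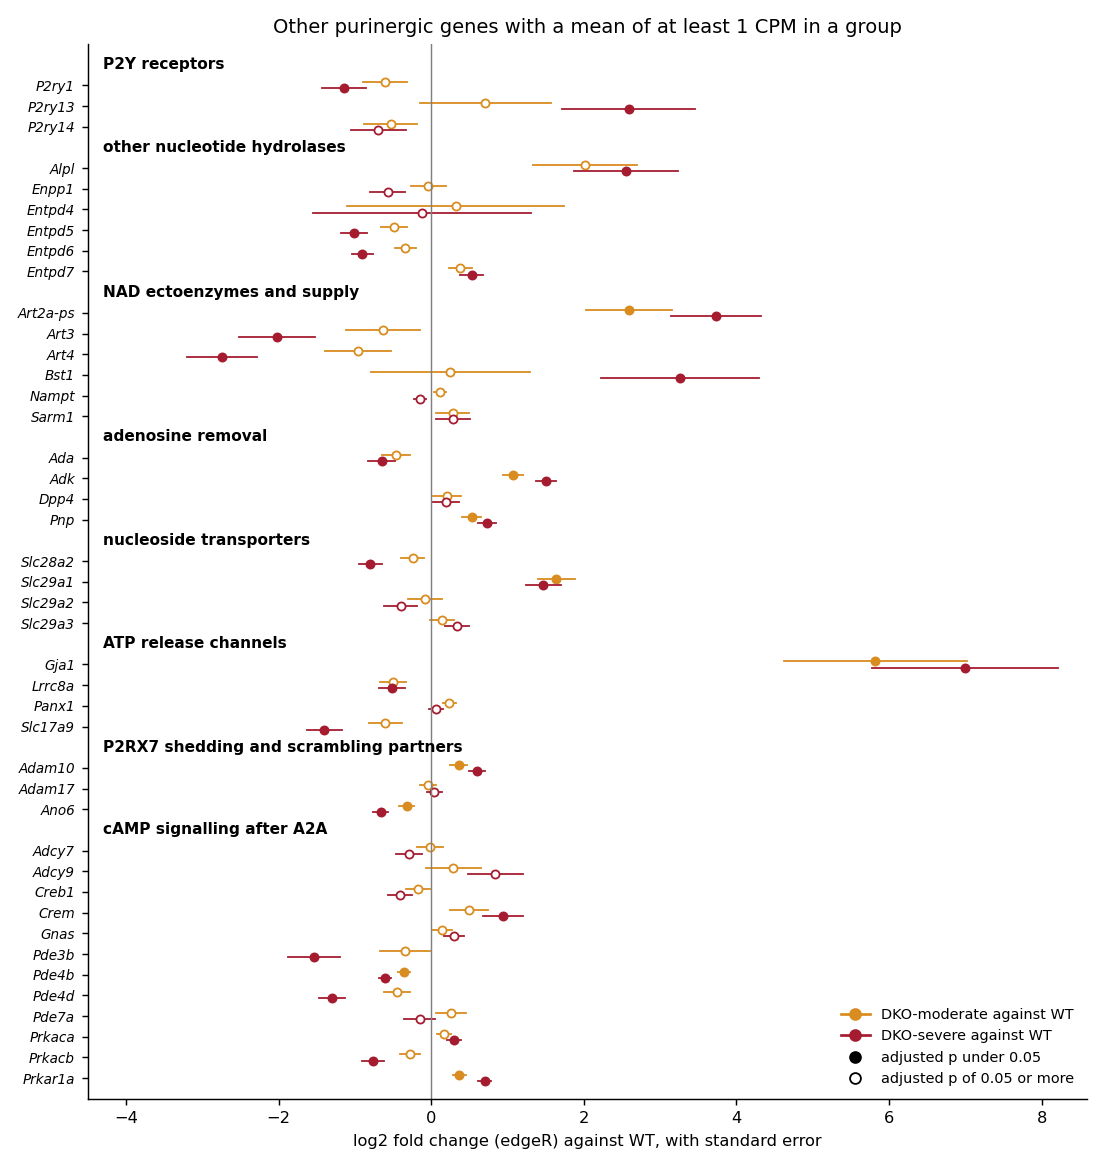
Log2 fold change with its standard error (x axis) of the other purinergic genes that averaged 1 CPM or more in some group (rows, by role) in DKO-moderate against WT and DKO-severe against WT (colours). Filled points passed an adjusted p of 0.05. Adk, Pnp and Slc29a1 are filled on the right in both comparisons, and Pde3b, Pde4d, Slc17a9 and Entpd5 are filled on the left in DKO-severe.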

How the data were processed

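Deposited values were raw counts per gene from 12 libraries. The authors aligned reads to mm10 with STAR 2.7.11, discarded reads mapping to several positions, and ran htseq-count with the reverse-strand option. The annotation used for counting is not given in the sources used here. Coordinates and exon lengths came from GENCODE M21, matched by symbol. Rows for reads not on genes (18.53% to 23.73%) were left out. Genes with at least 10 reads summed over a condition were tested with the quasi-likelihood test of edgeR 4.0.16 (TMM scaling, 1 fit over the 3 groups, Benjamini-Hochberg adjustment over 16035 genes, threshold 0.05). Exact permutation tests used CPM or log2 ratios of counts + 0.5. DESeq2 1.42.0, limma 3.58.1 (voom), other scalings, filters and covariates and each library left out were alternatives. Scripts were tested on simulated data.

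Members, gene lists and tests were chosen with earlier results of these data known. The text names the 8 genes, their 3 nearest genes by pattern and, per role list, the 2 largest passing changes in DKO-severe against WT among genes with a mean of at least 1 CPM. Genes below that level otherwise enter counts only. Adora1, Bst1, Entpd2, Entpd3, P2rx5, P2ry2, Ada and Dpp4 were named outside this rule, after their values were seen. Libraries of a group differed beyond sampling noise (chi-square per degree of freedom at least 22.9). Leaving out WT 3, DKO-severe 1 and DKO-severe 2 together was chosen after seeing marker sums.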

Additional observations from a re-analysis of the deposited data

Results flagged for a closer look

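In 33 groups of 4 libraries examined (the 8 genes and the 3 ratios in each group), 4 had a library farther from the others than the 95% critical value of Dixon's test for 4 values allows, where chance flags about 1 in 20 groups. Nt5e in DKO-moderate 2 was 393.8 CPM against 265.1 to 282.1 in the other 3. Adora2b in WT 3 was 0.259 CPM against 0.0 in the others, and the log2 ratio of Adora2a to Adora2b in WT 3, which uses the same reads, was 7.33 against 11.14 to 11.63. WT 3 is the WT library with 189.0 CPM of summed B cell markers. Cd38 in DKO-severe 4 was 76.6 CPM against 102.0 to 106.1 in the other 3.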

How the results depend on the processing

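Depth limits Adora2b alone among the 8 genes, with at most 15 reads per library. The direction of a change in Nt5e, Cd38, Entpd1 and Adora2a held in all 25 alternatives of each comparison. With terms for neutrophil and B cell markers, calls in DKO-severe against WT fell to 2 of the 8 genes, 5 of the other purinergic genes and 2132 of all genes, and between the DKO groups to 0, 0 and 39. With a term for monocyte and macrophage markers they fell to 3, 21 and 4613, and to 1, 1 and 536. Leaving out WT 3, DKO-severe 1 and DKO-severe 2 gave 3 of the 8 genes in DKO-severe against WT, and 9 purinergic and 2055 of all genes between the DKO groups. DESeq2 called 17 purinergic genes in DKO-moderate against WT. With a term for Y-linked genes, calls in that comparison were 3 in place of 4 among the 8 genes, and 2222 in place of 2734 among all genes. Between the DKO groups limma voom called 24 purinergic and 6126 of all genes, and the fit of 2 groups alone 4 purinergic genes. With 1 library left out at a time, counts for the 8 genes ran from 4 to 6, 3 to 5 and 1 to 3 in DKO-severe against WT, DKO-moderate against WT and between the DKO groups. Those for the purinergic lists ran from 29 to 37, 6 to 12 and 2 to 16, and those for all genes from 7253 to 9006, 1616 to 2920 and 1646 to 3670. The neutrophil term overlaps with the DKO-severe group, and so does the monocyte term apart from WT 3. Counts with either can thus fall through lost precision. The causes were not tested.

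Changes of sign were seen in values that had not passed, save P2rx7 in DKO-severe against WT (-0.09 with neutrophil and B cell terms). P2rx4 in that comparison was at -0.01 with limma voom, -0.39 with neutrophil and B cell terms, -0.09 with the monocyte term, -0.02 to 0.16 without 1 library (below 0 without DKO-severe 1) and -0.08 without the 3 libraries, and between the DKO groups at -0.2 with neutrophil and B cell terms. With those terms Art2b between the DKO groups was at 0.05 and Adora2b at -0.17, and with the monocyte term Adora2b was at -0.70. Adora2b in DKO-moderate against WT was at 0.38 with limma voom, 0.08 with a Y-linked term, 1.52 and 0.76 with the marker terms, and -1.21 to 4.12 without 1 library (above 0 without WT 3, 0.04 without DKO-moderate 1 and 0.23 without DKO-moderate 3). The log2 ratio of Adora2a to Adora2b in DKO-moderate against WT was 0.48 with counts + 5. Leaving out 1 library leaves 4 against 3, and the exact test of a ratio cannot then reach 0.05 after adjustment.

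Replicate numbers are shared between groups, and the labels do not say whether they pair the mice. Residuals of same-numbered libraries correlated at a median of -0.0343 (-0.272 to 0.208, 12 pairs), and of others at 0.0129. With the replicate block, calls among the 8 genes were 4, 3 and 1, among the other purinergic genes 32, 8 and 6, and among all genes 7794, 2201 and 2321.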
